A study of Mus musculus with 2 samples.

Results

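A set of 9 genes of the complement system were followed through 2 single-cell RNA libraries of mouse cholangiocarcinoma (CCA), a cancer of the bile ducts. The genes were C1qa, C1qb, C1qc, C2, C3, C4b, Cfb, Cfp and C5ar1, taken by symbol, and they make up 9 of the 32589 genes in the count matrices. All 9 were found, and none of them was used to sort cells into classes. Reads were counted as unique molecular identifiers (UMIs), each of which stands for 1 captured transcript.

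Complement is a cascade of plasma proteins that tags cells and particles for uptake or lysis. In the classical pathway the recognition molecule C1q starts cleavage of C4 and C2, the alternative pathway runs through factor B and is stabilised by properdin, and both converge on C3. Most plasma complement is made by hepatocytes, whereas C1q and properdin are known as products of myeloid cells, and tissue macrophages and fibroblasts make several components locally.

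The tumors were raised in mice by hydrodynamic tail vein injection (HDTVI), which delivers plasmids to hepatocytes, of the Notch intracellular domain (NICD) together with a myristoylated, membrane-bound AKT (myr-AKT). Animals of both groups were of the genotype shYT, in which the ubiquitous CAG-rtTA3 driver expresses short hairpin RNAs against YAP and TAZ under doxycycline, here from day 25. One group then received clone RMP1-14, an antibody that blocks the inhibitory receptor PD-1 of T cells (anti-PD-1), on days 26, 29 and 32, and the other received PBS. Both were analysed on day 33, and the question put to the data was how the tumors of YAP/TAZ-depleted animals change under PD-1 blockade. The labels give 1 library per group and do not say which of the 2 shYT lines was used. By the study's legends and methods a group held more than 1 animal and mice of both sexes were used, but nothing in the files ties a cell to an animal, so each group is 1 sample. Because CAG-rtTA3 is not restricted to tumor cells, the hairpins were available to stromal and immune cells too. No library without the hairpins was analysed here, so the levels of Yap1 and Wwtr1 (TAZ) do not check the knockdown. In cancer-associated fibroblasts (CAFs) Yap1 stood at 22.4 and 22.1 and Wwtr1 at 106 and 70.6 CPM, that is UMI counts scaled to the total of the class, with PBS and anti-PD-1.

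The PBS library held 19397 barcodes and 121713441 UMIs, and the anti-PD-1 library 19451 barcodes and 100807037 UMIs. After the cell filters 15531 and 16360 cells were kept, with medians of 3159 and 2990 UMIs per cell, and 219 barcodes occurred in both libraries. Of the kept cells 82.2% and 79.8% could be placed in a class by marker genes, and 14 classes had at least 50 cells in each library. A class name in the text stands for the marker gate, for example Kupffer-like for "Kupffer cell", since no annotation by the authors was used. Each compared class except plasma and endothelial cells was led by a marker of its own. Plasma cells had 1 of their 5 markers and endothelial cells 2 of their 6 among their 10 leading genes. The leading genes of type 1 dendritic cells included Flt3, a marker of the type 2 class. With 1 library per group no test between the treatments can be made, and all intervals printed are 95% intervals that cover counting error only. The libraries also differed in the sex of their cells: Xist gave 18452 UMIs with PBS and 11 with anti-PD-1, and 4 Y-linked genes gave 3113 and 15323. Sex mix and treatment cannot be told apart.

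Of the 126 pairs of a gene and a class, 97 had a mean of at least 10 CPM over both libraries. A pair was counted as past the fold where the log2 ratio of (CPM + 5), anti-PD-1 over PBS, was at least 1 in size, and 21 pairs were past it upward and 2 downward. A transcript that reaches the minimum through 1 library alone is bound to differ, so these counts describe the libraries and are no test. Upward pairs were spread unevenly over the classes. In tumor/biliary cells 6 of the 7 complement genes above the minimum were past the fold, against 3.52% of all genes above it, and in type 1 dendritic cells (cDC1) 5 of 6, against 4.42%. Under another definition of the class the 3 C1q genes left the count in tumor/biliary cells, with classes by cluster, and the 3 C1q genes and Cfp in cDC1, with a gate asking for 1 more marker. In plasma cells the count was 3 of 5 (4.39% of all genes), in macrophages 2 of 8 (3.35%) and in CAFs 2 of 8 (3.59%). Neutrophils (2.94% of all genes), T cells (1.7%) and monocytes (4.09%) had 1 each. The downward pairs were C5ar1 in monocytes (1.63% of all genes) and Cfb in mature dendritic cells (12.6%). Kupffer cells, cDC2, B cells, NK cells and endothelial cells had none, where 2.36%, 3.46%, 1.62%, 2.15% and 3.6% of all genes were past the fold upward and 0.257%, 4.25%, 1.35%, 1.69% and 3.44% downward. In the other classes 6.76% of all genes were past it upward in mature dendritic cells, and downward 4.65% in neutrophils, 0.433% in macrophages, 3.76% in cDC1, 1.88% in plasma cells, 0.713% in T cells, 2.22% in tumor/biliary cells and 2.15% in CAFs.

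**Figure D1:**
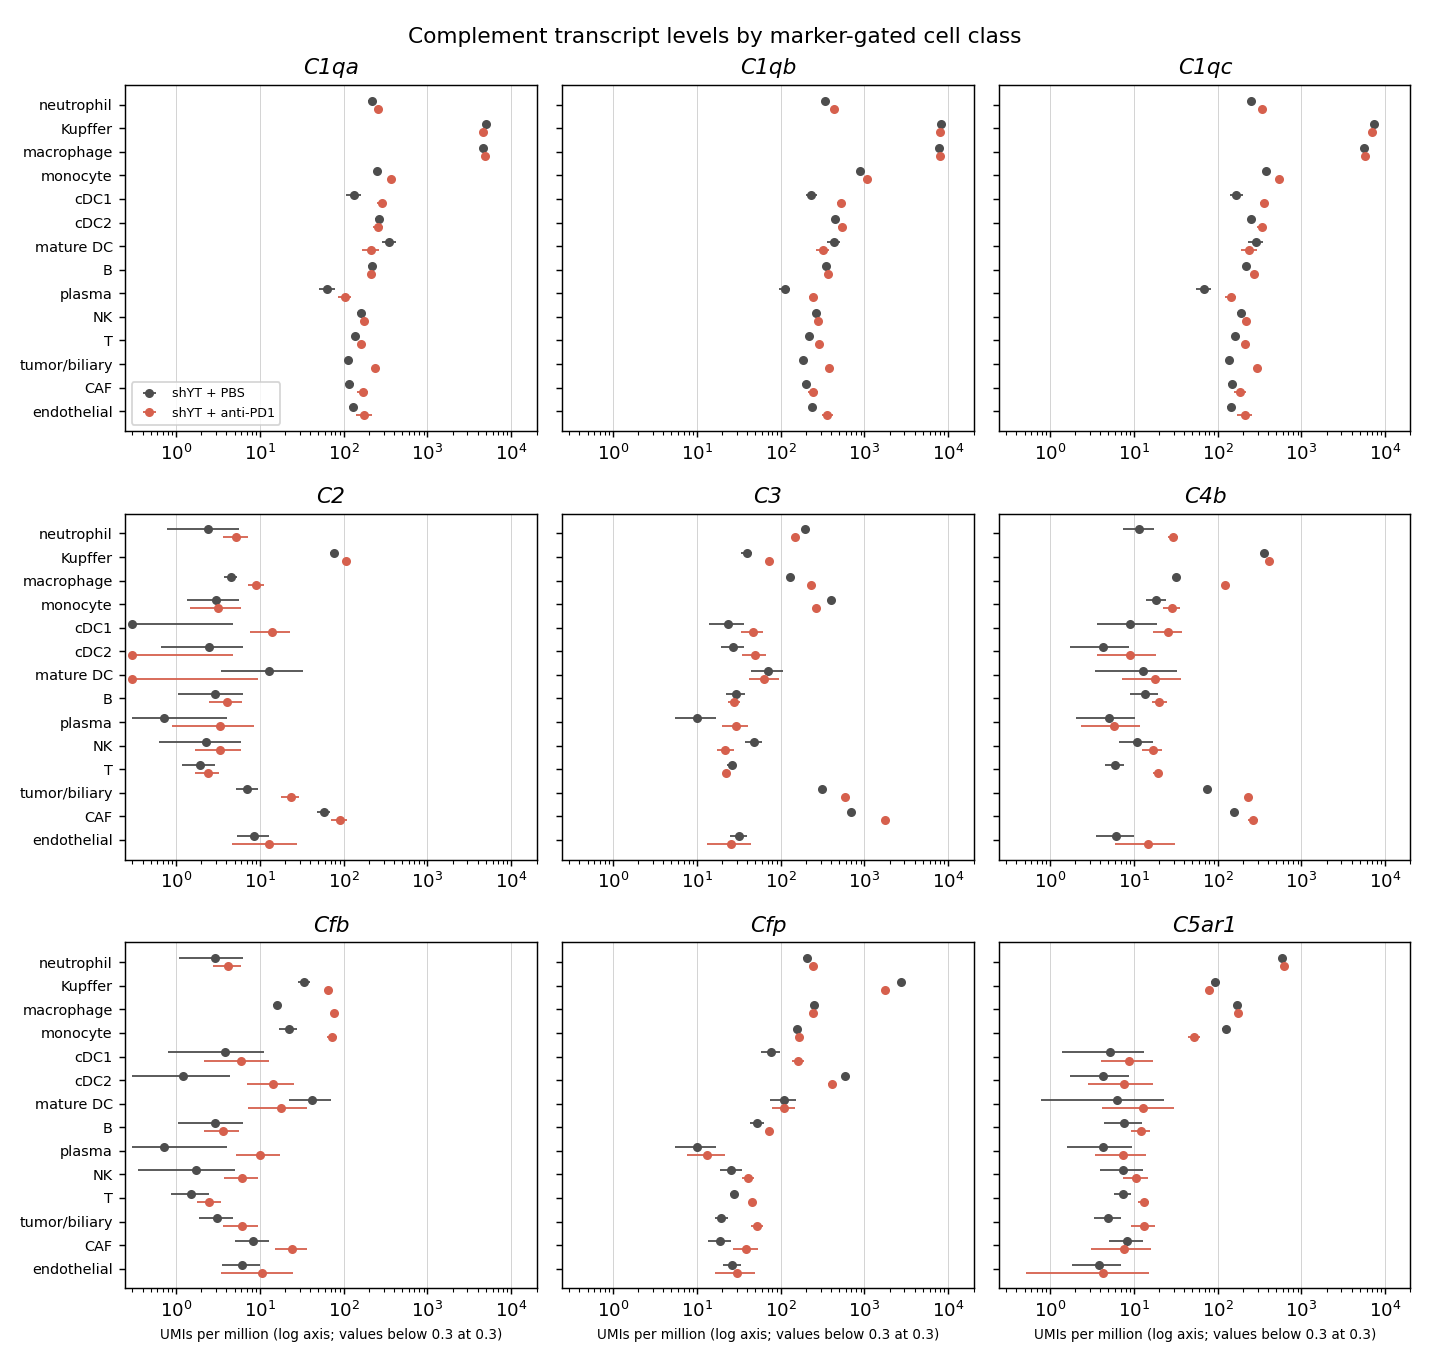
Level of each complement gene in 14 marker-gated cell classes. Points are CPM on a log axis, grey for shYT with PBS and red for shYT with anti-PD-1, bars are exact 95% Poisson intervals, and values below 0.3 are drawn at 0.3. The C1q genes stand far higher in Kupffer cells and macrophages than in any other class, C5ar1 in neutrophils, and Cfp in Kupffer cells.

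C1qa, C1qb and C1qc encode the 3 chains of C1q, the recognition molecule of the classical pathway. They lie side by side on the minus strand of chromosome 4, C1qb at chr4:136880129-136886187, C1qc at chr4:136889804-136893065 and C1qa at chr4:136895917-136898803 (GRCm38). Because the chains share both a locus and a cell type, the stretch of 250 bases before the start of C1qb is shown as an example of the sequence in front of these genes. It spans chr4:136886201-136886450 of the RefSeq annotation of GRCm38.p6, is printed 5′ to 3′ on the minus strand, and overlaps no annotated exon. Capitals mark the letters GAGGAA, searched on both strands as a core of the motif of PU.1, a factor of myeloid cells.
C1qb: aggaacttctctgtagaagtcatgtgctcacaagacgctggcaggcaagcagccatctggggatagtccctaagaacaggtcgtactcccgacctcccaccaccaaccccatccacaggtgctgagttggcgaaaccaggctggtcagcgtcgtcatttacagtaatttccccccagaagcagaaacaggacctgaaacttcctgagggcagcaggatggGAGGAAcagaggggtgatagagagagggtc
The match lies between bases -30 and -25 from the start. The window before C1qc, which overlaps an annotated exon, held the same letters on the other strand, between bases -193 and -188. GAGGAA occurs on either strand in 23.3% of the 32851 RefSeq promoter windows, so a match describes these windows and is not evidence of a bound site. RefSeq windows were at hand for 5 of the 9 genes (C1qb, C1qc, C3, Cfp and C5ar1).

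C1q transcripts came from macrophages and Kupffer cells, the resident macrophages of the liver, and in those classes as wholes their levels hardly differed between the libraries. In macrophages C1qa stood at 4655 CPM with PBS and 4843 with anti-PD-1, C1qb at 7773 and 7880, and C1qc at 5541 and 5773. In Kupffer cells C1qa stood at 4982 and 4543, C1qb at 8264 and 7939, and C1qc at 7293 and 6987. The log2 ratios were 0.06, 0.02 and 0.06 in macrophages and -0.13, -0.06 and -0.06 in Kupffer cells, each with an interval that stayed clear of 0 and a size far below the fold used here. The sign in Kupffer cells depended on the scaling: with median-ratio scaling, which moved the median of all Kupffer-cell genes by -0.16, the 3 ratios became 0.03, 0.11 and 0.10. The sign in macrophages turned with classes by Leiden cluster, to -0.21, -0.19 and -0.18. Some single clusters differed more than the classes. Cluster 9 was mixed: its markers named it erythroid, and Kupffer cells were 36.7% of its gated cells. Its 53 and 248 Kupffer cells had a low median depth of 1072 UMIs. In them C1qa stood at 4544 and 2709 CPM, C1qb at 6493 and 4118 and C1qc at 5953 and 3341 (-0.75, -0.66 and -0.83). In macrophages the C1qa ratio was 0.21 in cluster 1 and -0.24 in cluster 8, with intervals clear of 0.

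Nearly every cell of both classes with at least 1000 UMIs carried C1q. Cells with fewer UMIs were left out of the thinned shares here and below. After thinning to 1000 UMIs, C1qb was found in 98.8% and 98.6% of macrophages and in 98.9% and 96.8% of Kupffer cells with PBS and anti-PD-1. T cells, which should lack it, carried it in 16.8% and 24.4% of cells at the same depth, and in 36.1% and 59.7% without thinning, at medians of 2732.5 and 3628 UMIs per cell. What moved by the marker gate was the source. The size depended on the gate and was smaller by Leiden cluster. Clusters named macrophage held 2810, 138 and 122 cells with PBS and 117, 1397 and 89 with anti-PD-1. Those named Kupffer held 715 and 11 with PBS and 1303 and 80 with anti-PD-1. By the gate the values were as follows. Macrophages were 18.2% of the kept cells with PBS and 5.72% with anti-PD-1, and Kupffer cells 3.13% and 8.21%. Of all C1qb UMIs in a library, macrophages held 68.0% with PBS and 32.4% with anti-PD-1, and Kupffer cells 12.0% and 38.8%. Cells outside every gate held a further 16.5% and 22.0%.

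The proportion of the chains differed among Kupffer cells, macrophages and monocytes. C1qc made up 35.5% and 35.9% of the C1q UMIs of Kupffer cells with PBS and anti-PD-1, and 30.8% and 31.2% of those of macrophages. In monocytes C1qb made up 58.3% and 54.3%, against 43.3% and 42.6% in macrophages and 40.2% and 40.8% in Kupffer cells. The binomial intervals of these classes do not overlap in either library. Monocytes carried C1q at a lower level than macrophages, with C1qa at 253 and 367 CPM, C1qb at 890 and 1079 and C1qc at 383 and 541, and log2 ratios of 0.53, 0.28 and 0.49. The direction was the opposite inside monocyte cluster 16, with 379 and 44 cells, where C1qa stood at 227 and 138 CPM, C1qb at 838 and 276 and C1qc at 359 and 170, with Poisson intervals that did not overlap.

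**Figure D2:**
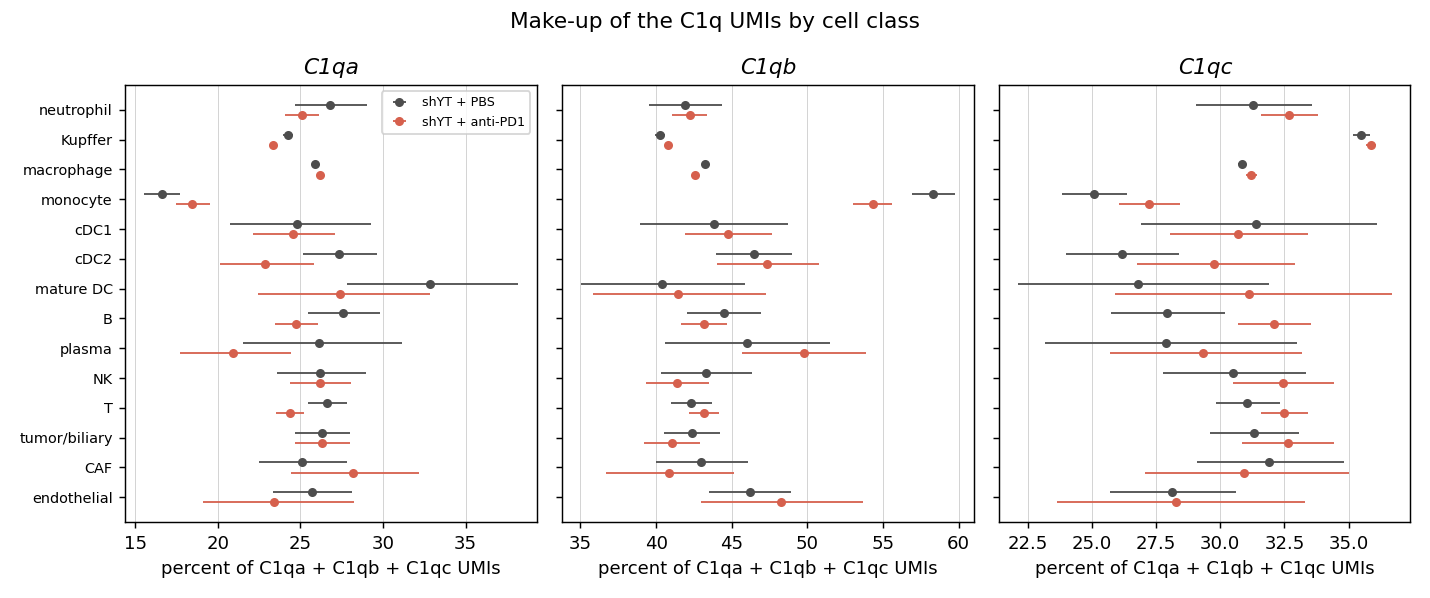
Share of C1qa, C1qb and C1qc in the C1q UMIs of each class, in percent, for PBS (grey) and anti-PD-1 (red), with exact binomial 95% intervals. The axes do not start at 0. Monocytes have the highest C1qb share, at 58.3% and 54.3%, and Kupffer cells the highest C1qc share, at 35.5% and 35.9%, though some intervals of smaller classes overlap theirs, while T cells and tumor/biliary cells lie between 41.0% and 43.2% on C1qb.

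In tumor/biliary cells, cDC1 and plasma cells, whose C1q levels were far below those of macrophages, the ratios were larger. In tumor/biliary cells C1qa stood at 114 and 240 CPM (log2 ratio 1.04, interval 0.90 to 1.19), C1qb at 183 and 374 (1.01) and C1qc at 135 and 297 (1.11). These 3 ratios fell below the fold, to 0.72, 0.73 and 0.78, with classes by Leiden cluster, and 20% mitochondrial UMIs gave 0.82, 0.88 and 0.99. They were past the fold inside the main tumor cluster 0, with 1128 and 746 cells, at 1.13, 1.13 and 1.23. Inside the smaller cluster 21, with 189 and 82 cells, they were -0.01, 0.05 and 0.31, each with an interval that included 0. In cDC1 the ratios were 1.08, 1.14 and 1.07, but a gate asking for 1 more marker gave 0.29, 0.83 and 0.46. The top 5% of the 97 cDC1 with anti-PD-1 held 53.8%, 58.9% and 58.9% of the UMIs of C1qa, C1qb and C1qc in that class. In plasma cells the ratios were 0.65, 1.09 and 1.03, and the top 5% of the 65 cells with anti-PD-1 held 42.7%, 45.4% and 49.4% of these UMIs. In mature dendritic cells the ratios of C1qa and C1qb were -0.71 and -0.42, with intervals below 0, but the top 5% of the 67 cells with PBS held 77.1% and 67.9% of these UMIs. The share of mature dendritic cells with a UMI at 1000 UMIs per cell was 12.3% and 21.3% for C1qa and 18.5% and 36.1% for C1qb, with PBS and anti-PD-1, with overlapping intervals. The summed level of 12 macrophage and Kupffer-cell markers moved in these classes as well: 188 and 447 CPM in tumor/biliary cells, 217 and 344 in cDC1, 117 and 186 in plasma cells, 250 and 389 in T cells, and 195 and 350 in mature dendritic cells. In macrophages and Kupffer cells the same sum was 5805 and 4580, and 23622 and 18156. C1qb was 42.4% and 41.0% of the C1q UMIs of tumor/biliary cells and 42.3% and 43.2% of those of T cells, against 43.3% and 42.6% in macrophages and 40.2% and 40.8% in Kupffer cells. The part of free RNA and of attached macrophages in these levels was not tested. The estimate of free RNA exceeded the whole C1q level of tumor/biliary cells, cDC1 and plasma cells in at least 1 library. The subtracted value was then below 0, so no ratio could be formed.

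C2 and C4b encode the components that C1 cleaves to build the C3 convertase of the classical pathway. Both lie on chromosome 17, in the class III part of the major histocompatibility complex, C4b at chr17:34728380-34743882 and C2 at chr17:34862604-34898265. C4b has a near-identical neighbour, C4a, at chr17:34809092-34823464, which received 0 to 9 UMIs per class and library here, so how the counting split reads between the copies is uncertain. Among the compared classes C2 was highest in Kupffer cells and CAFs. In Kupffer cells it stood at 77.7 CPM with PBS and 107 with anti-PD-1 (log2 ratio 0.44, interval 0.28 to 0.61), and in CAFs at 58.0 and 89.4 (0.58, interval 0.20 to 0.96). In tumor/biliary cells it rested on 46 and 69 UMIs, at 7.10 and 23.3 CPM (1.23, interval 0.84 to 1.60). Endothelial cells were at 8.50 and 12.8 CPM from 22 and 6 UMIs, and 10 of the 14 classes were under the minimum.

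C4b was higher with anti-PD-1 in all 12 classes in which it reached the minimum, and 8 of the 12 intervals lay above 0. Kupffer cells had the highest level and a small ratio, at 357 and 407 CPM (0.19, interval 0.10 to 0.27). Macrophages started low and stood 3.80-fold higher with anti-PD-1, at 32.2 CPM from 826 UMIs and 122 CPM from 1195 UMIs (1.78, interval 1.66 to 1.89). Tumor/biliary cells were 3.10-fold higher, at 75.3 and 234 CPM (1.57, interval 1.41 to 1.73). CAFs stood at 158 and 265 CPM (0.73, interval 0.49 to 0.96), and their interval overlapped that of tumor/biliary cells with anti-PD-1. Lower levels past the fold were seen in neutrophils (11.7 and 29.6 CPM), T cells (5.94 and 19.3) and cDC1 (9.09 and 25.7, from 7 and 26 UMIs).

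The share of macrophages with a C4b UMI was 2.82% with PBS and 8.08% with anti-PD-1 at 1000 UMIs per cell, and 12.4% and 31.3% without thinning. For tumor/biliary cells it was 4.95% and 16.3%, and for Kupffer cells 27.6% and 30.02%. T cells gave 0.641% and 2.17% at the same depth, so a low background share was itself higher with anti-PD-1. C4b was unevenly held: the top 5% of macrophages carried 73.4% of the C4b UMIs of that class with PBS and 59.1% with anti-PD-1.

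The macrophage class was not made of the same clusters in both libraries. Clusters were drawn from both libraries together, without the complement genes. No correction for library was made and sex-linked genes were not taken out. A split by library and a split by kind of cell therefore cannot be told apart. With PBS 88.6% of macrophages fell in cluster 1, led by Gpnmb, Gpr34 and Gas6 and with Xist among its 10 leading genes, and with anti-PD-1 80.2% fell in cluster 8, led by Ptgs2, Cxcl1, Acod1 and the interferon-induced genes Iigp1, Ifit3 and Cxcl10. Inside cluster 1 C4b stood at 31.4 and 52.6 CPM (log2 ratio 0.66), inside cluster 8 at 37.9 and 106 (1.37), and inside the proliferating cluster 23, led by Top2a and Mki67, at 11.5 and 56.9 (1.91). All 3 intervals lay above 0. Markers of Kupffer cells were also higher in the macrophage class, 4 of 4, with a sum of 168 and 249 CPM, and so were markers of neutrophils, 6 of 6, with a sum of 215 and 541. In Kupffer cells 5 of the 6 neutrophil markers were higher, with a sum of 270 and 685 CPM. In macrophages with no UMI of these 4 markers, which were 66.2% of the class with PBS and 21.2% with anti-PD-1, the C4b ratio was 1.73.

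C3 encodes the component on which all pathways converge, and it lies at chr17:57203970-57228136. The 250 bases in front of it, at chr17:57228137-57228386 on the minus strand of GRCm38.p6 by RefSeq, are shown because C3 in CAFs was the best counted of the large differences outside the myeloid classes. No part is in capitals, since none of these 5 motifs was found on either strand of this window: TTTCNNTTTC (the core of the ISRE), TGANTCA (AP-1), TTGNNCAA (a C/EBP core), GGGANNTCC (a kappaB core) and GAGGAA.
C3: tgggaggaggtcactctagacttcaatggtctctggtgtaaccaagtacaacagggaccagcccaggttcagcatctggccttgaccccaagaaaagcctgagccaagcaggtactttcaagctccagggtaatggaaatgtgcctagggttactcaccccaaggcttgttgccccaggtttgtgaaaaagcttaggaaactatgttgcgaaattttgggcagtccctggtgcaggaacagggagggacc
These letters occur in 2.98%, 6.75%, 5.65%, 3.59% and 23.3% of all RefSeq promoter windows, in the order given. A missing match says no more than that the letters are not in this stretch.

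C3 had no common direction: 7 classes were higher with anti-PD-1 and 7 lower. The interval lay above 0 in 7 classes and below 0 in 3. CAFs had the highest level of the compared classes, at 690 CPM from 1569 UMIs with PBS and 1771 CPM from 1604 UMIs with anti-PD-1, a 2.57-fold difference (log2 ratio 1.35, interval 1.25 to 1.45). Tumor/biliary cells stood at 312 and 589 CPM (0.91, interval 0.81 to 1.00), below monocytes with PBS and next to CAFs with anti-PD-1. Macrophages stood at 128 and 230 CPM and Kupffer cells at 39.6 and 73.4, both with a ratio of 0.82. Monocytes were lower with anti-PD-1, at 402 and 261 CPM (-0.61, interval -0.74 to -0.48), and so were NK cells, at 47.9 and 22.0 (-0.97, interval -1.37 to -0.56). The NK cell levels rested on 83 and 72 UMIs, of which the top 5% of cells held 91.6% and 83.3%. Neutrophils stood at 197 and 148 CPM (-0.40), a ratio that became -0.01 with median-ratio scaling, under which the median of all neutrophil genes moved by -0.40. In plasma cells the pair past the fold rested on 14 and 35 UMIs (10.1 and 29.0 CPM). T cells were at 26.2 and 22.6 CPM.

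At 1000 UMIs per cell C3 was found in 23.8% of CAFs with PBS and 39.2% with anti-PD-1, in 15.8% and 34.2% of tumor/biliary cells, and in 8.97% and 16.3% of macrophages. Without thinning these shares were 37.0% and 52.2%, 27.8% and 45.7%, and 36.8% and 60.5%. T cells gave 2.18% and 2.56% at 1000 UMIs. A few cells carried most of the transcript: the top 5% of CAFs held 64.8% of the C3 UMIs of the class with PBS and 43.1% with anti-PD-1, and the top 5% of tumor/biliary cells 70.4% and 50.7%.

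The CAF class was spread over its clusters in different proportions in the libraries. Cluster 15, led by the contractile genes Myh11, Tagln and Acta2 and by Rgs5, held 82.1% of the CAFs with PBS and 55.9% with anti-PD-1. Cluster 27, led by Clec3b, Scara5, Penk and Pi16, held 13.8% and 36.0%, which is 57 and 58 cells. C3 in cluster 27 was at 3362 and 3068 CPM (log2 ratio -0.13, interval -0.25 to -0.01), and in cluster 15 at 330 and 509 (0.62, interval 0.40 to 0.84). C3 was an order of magnitude higher in cluster 27 with PBS, and within neither cluster did its ratio reach the fold. C4b fell on the same side, with 412 and 471 CPM in cluster 27 and 125 and 60.8 in cluster 15 (0.19 and -0.98). C2 differed in opposite directions, at 22.3 and 134 CPM in cluster 27, from 6 UMIs with PBS, and 63.6 and 42.8 in cluster 15 (2.35 and -0.52).

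Tumor/biliary cells and macrophages were mixed as well. In the main tumor cluster 0, with 1128 and 746 cells, led by Upk3a and Gp2, C3 stood at 206 and 588 CPM (1.49, interval 1.38 to 1.61). In cluster 21, with 189 and 82 cells, led by Reg1, Ly6d and S100g, it stood at 926 and 511 (-0.85, interval -1.07 to -0.63). C4b differed in cluster 0, at 80.4 and 267 CPM (1.67), and in cluster 21 stood at 18.2 and 22.5 (0.25, interval -0.76 to 1.22). In macrophages C3 was 113 and 130 CPM in cluster 1, 515 and 241 in cluster 8, and 138 and 239 in cluster 23, with log2 ratios of 0.19, -1.08 and 0.77, so the class ratio of 0.82 was not seen in each cluster.

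**Figure D3:**
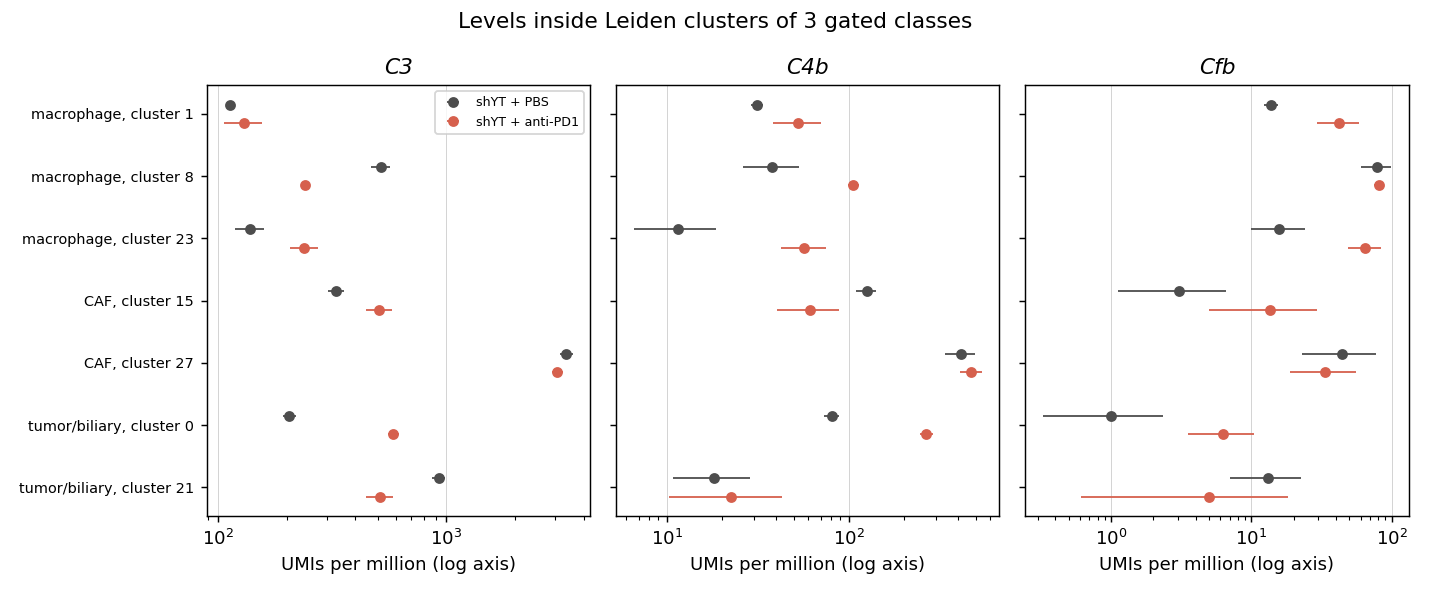
C3, C4b and Cfb inside single clusters of macrophages, CAFs and tumor/biliary cells. Points are CPM on a log axis, grey for PBS and red for anti-PD-1, with exact 95% Poisson intervals. C3 in CAF cluster 27 differs little between the libraries, at 3362 and 3068, and C3 in tumor/biliary cells lies higher with anti-PD-1 in cluster 0 and lower in cluster 21.

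Cfb encodes factor B, the protease of the alternative-pathway convertase, and lies next to C2 at chr17:34856374-34862518. Another annotated gene, Gm20547, overlaps both on the same strand and received 0 to 3 UMIs per class and library. Cfb gave the largest ratio of any complement gene in macrophages, where it stood at 15.9 CPM from 408 UMIs with PBS and 75.8 CPM from 740 UMIs with anti-PD-1, a 4.77-fold difference (log2 ratio 1.95, interval 1.80 to 2.10). Monocytes stood at 22.1 and 72.1 CPM, from 67 and 204 UMIs (1.51, interval 1.16 to 1.85), and Kupffer cells at 33.9 and 65.8 (0.86, interval 0.64 to 1.10). The direction in monocytes depended on the class: with classes by Leiden cluster the ratio was -0.59 (interval -1.56 to 0.45), and inside monocyte cluster 16 Cfb stood at 13.3 and 8.64 CPM, from 35 and 3 UMIs. With anti-PD-1 the intervals of macrophages and monocytes overlapped, and so did those of monocytes and Kupffer cells. CAFs had 19 and 22 UMIs (8.36 and 24.3 CPM, 1.13). Mature dendritic cells had 13 and 7 UMIs (41.6 and 18.0 CPM), and the interval of their ratio, -2.17 to 0.15, included 0.

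The share of macrophages with a Cfb UMI at 1000 UMIs per cell was 1.54% with PBS and 6.68% with anti-PD-1, and 9.36% and 38.1% without thinning. T cells gave 0.0961% and 0.0893% from 3 cells in each library, and 0.221% and 0.971% without thinning. Tumor/biliary cells gave 0.0838% and 1.02% at 1000 UMIs. Within clusters the ratio held in cluster 1, at 13.8 and 42.1 CPM (1.32), and in cluster 23, at 15.8 and 64.9 (1.75). Cluster 8 was at 78.1 and 80.9 CPM, a ratio of 0.05 with an interval from -0.29 to 0.41. At this depth its 101 cells with PBS and 751 with anti-PD-1 could not be told apart in Cfb. In macrophages with no UMI of the 4 Kupffer-cell markers the ratio was 1.82. In CAFs too few UMIs were left for a comparison by cluster, 6 and 6 in cluster 15 and 12 and 15 in cluster 27. For monocytes 84.0% of the cells with PBS fell in cluster 16, led by Fn1 and Chil3 and with Xist among its 10 leading genes, and 70.2% of those with anti-PD-1 in cluster 8, which held 20 monocytes with PBS, too few for a level.

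Interferon-gamma response genes were mostly higher with anti-PD-1. Of a list of 21, all 21 were higher in macrophages with anti-PD-1, with a median log2 ratio of 1.70, against -0.16 for all genes above the minimum. The median of the list was 1.56 in monocytes, 1.50 in Kupffer cells, 1.73 in neutrophils, 1.47 in CAFs, 2.20 in tumor/biliary cells and 0.40 in T cells, and it lay above the median of all genes in all 14 classes. It was 2.58 in endothelial cells and 0.78 in cDC1. Further complement genes listed below were past the fold too. In endothelial cells 4 of 17 above the minimum were so upward and 0 downward, against 3.6% and 3.44% of all genes. In cDC1 it was 2 of 11 upward and 2 downward, against 4.42% and 3.76%. In tumor/biliary cells it was 6 of 16 upward and 1 downward, against 3.52% and 2.22%. A list of 14 genes of dissociation stress, such as Fos and Jun, had medians of 1.40 in macrophages, 1.22 in Kupffer cells, 2.16 in CAFs and 1.83 in tumor/biliary cells, and of 0.22 in neutrophils, where 7 were higher and 7 lower. The 6 neutrophil markers were all higher in CAFs (139 and 706 CPM in sum) and in tumor/biliary cells (143 and 896). Mesothelial markers, whose cells were the richest in C3, were at 10.6 and 11.04 CPM in CAFs. The part of these movements in the complement levels was not tested.

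Cfp encodes properdin, the one known positive regulator of the alternative pathway, and is X-linked, at chrX:20925454-20931555. The 250 bases before it, chrX:20931556-20931805 on the minus strand of GRCm38.p6 by RefSeq, are given for comparison with C1qb, since Kupffer cells carried both genes at a high level. None of the 5 motifs was found, and no letter is in capitals.
Cfp: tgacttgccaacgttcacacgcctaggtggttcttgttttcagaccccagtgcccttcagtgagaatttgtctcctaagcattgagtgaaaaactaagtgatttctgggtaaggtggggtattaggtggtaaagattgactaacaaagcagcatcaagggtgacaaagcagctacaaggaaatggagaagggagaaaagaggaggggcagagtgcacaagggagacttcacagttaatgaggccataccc
Cfp was lower with anti-PD-1 in the class that carried most of it. Kupffer cells stood at 2699 CPM from 11463 UMIs with PBS and at 1777 CPM from 20628 UMIs with anti-PD-1 (log2 ratio -0.60, interval -0.63 to -0.57). The 4 markers of the Kupffer gate were lower as well. Clec4f stood at 7149 and 5570 CPM, Cd5l at 7834 and 5999, Marco at 2615 and 1829 and Timd4 at 688 and 631. The part of this shift in the Cfp ratio was not tested. The share of Kupffer cells with a Cfp UMI at 1000 UMIs per cell was 87.4% and 73.0%, and 93.8% and 85.6% without thinning, against 2.60% and 4.41% in T cells. In the main Kupffer cluster 5, which held 84.4% and 73.6% of the class, the ratio was -0.59. In the Kupffer cells of the mixed cluster 9, named erythroid by its markers, it was -0.54. The size of the difference depended on the cells taken: it was -0.44 with median-ratio scaling and -0.25 among cells with a Y-linked UMI and no Xist UMI, which were 16.5% of the Kupffer cells with PBS and 59.4% with anti-PD-1. Type 2 dendritic cells (cDC2) came next and were lower as well, at 593 and 413 CPM (-0.52, interval -0.70 to -0.34).

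Macrophages, neutrophils and monocytes carried far less Cfp than Kupffer cells. They stood at 250 and 243 CPM (-0.04), 206 and 245 (0.25) and 158 and 166 (0.06). Inside the macrophage clusters 1, 8 and 23 the ratios were 0.32, 0.37 and -0.46, each with an interval clear of 0. In tumor/biliary cells (19.6 and 52.0 CPM, 1.21) and cDC1 (76.6 and 161 CPM, 1.03) Cfp was past the fold upward, though the gate asking for 1 more marker gave 0.86 in cDC1. The 4 Kupffer-cell markers summed to 63.9 and 275 CPM in tumor/biliary cells. T cells carried Cfp at 28.1 and 45.2 CPM. The part of free RNA in these Cfp levels was not tested. Plasma cells stood at 10.1 and 13.3 CPM from 14 and 16 UMIs (0.27).

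C5ar1 encodes the receptor of the anaphylatoxin C5a, which draws neutrophils and monocytes to sites of activation, and lies at chr7:16246743-16259540. Neutrophils had the highest level, at 588 CPM with PBS and 625 with anti-PD-1 (log2 ratio 0.09, interval -0.01 to 0.18). Macrophages followed at 169 and 176 CPM (0.06, interval -0.02 to 0.13). Both intervals included 0, but with median-ratio scaling the ratios became 0.48 and 0.26, with intervals above 0. Inside macrophage cluster 8 C5ar1 stood at 108 and 180 CPM (0.71, interval 0.42 to 1.01), and inside cluster 1 at 173 and 165. Neutrophils were also split by library, with 85.4% of those with PBS in cluster 11, which Xist led, and 78.4% of those with anti-PD-1 in cluster 3, and C5ar1 inside cluster 3 had a ratio of -0.11 with an interval that included 0. Neutrophils were 7.82% and 17.4% of the kept cells and held 15.7% of the C5ar1 UMIs with PBS and 46.8% with anti-PD-1, while macrophages held 56.6% and 19.0%.

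Monocytes carried less C5ar1 with anti-PD-1, with 126 CPM from 380 UMIs with PBS and 51.9 CPM from 147 UMIs with anti-PD-1 (-1.20, interval -1.46 to -0.94). Their share with a C5ar1 UMI at 1000 UMIs per cell was 11.3% and 3.66%, and 36.1% and 19.95% without thinning, against 0.513% and 1.01% in T cells. With PBS monocytes ranked above Kupffer cells, which stood at 93.5 and 79.3 CPM, and with anti-PD-1 below them. The leading genes of the monocyte class included the granule genes Mpo, Elane, Prtn3 and Ctsg of early myeloid cells, and without cells that carried them the ratio was -1.34. Inside monocyte cluster 16 C5ar1 stood at 141 and 20.2 CPM, from 370 and 7 UMIs. Markers of the monocyte gate moved too. Chil3 stood at 7192 and 1474 CPM, Ccr2 at 871 and 356, F13a1 at 753 and 266 and Vcan at 424 and 186. Ly6c2 stood at 1718 and 4165 CPM and Plac8 at 1767 and 3445. Macrophage markers were lower in the same class, 1448 and 787 CPM in sum, and C3 was lower in it too, while Cfb was higher in the class as gated. The part of the changed make-up in the C5ar1 ratio was not tested.

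**Figure D4:**
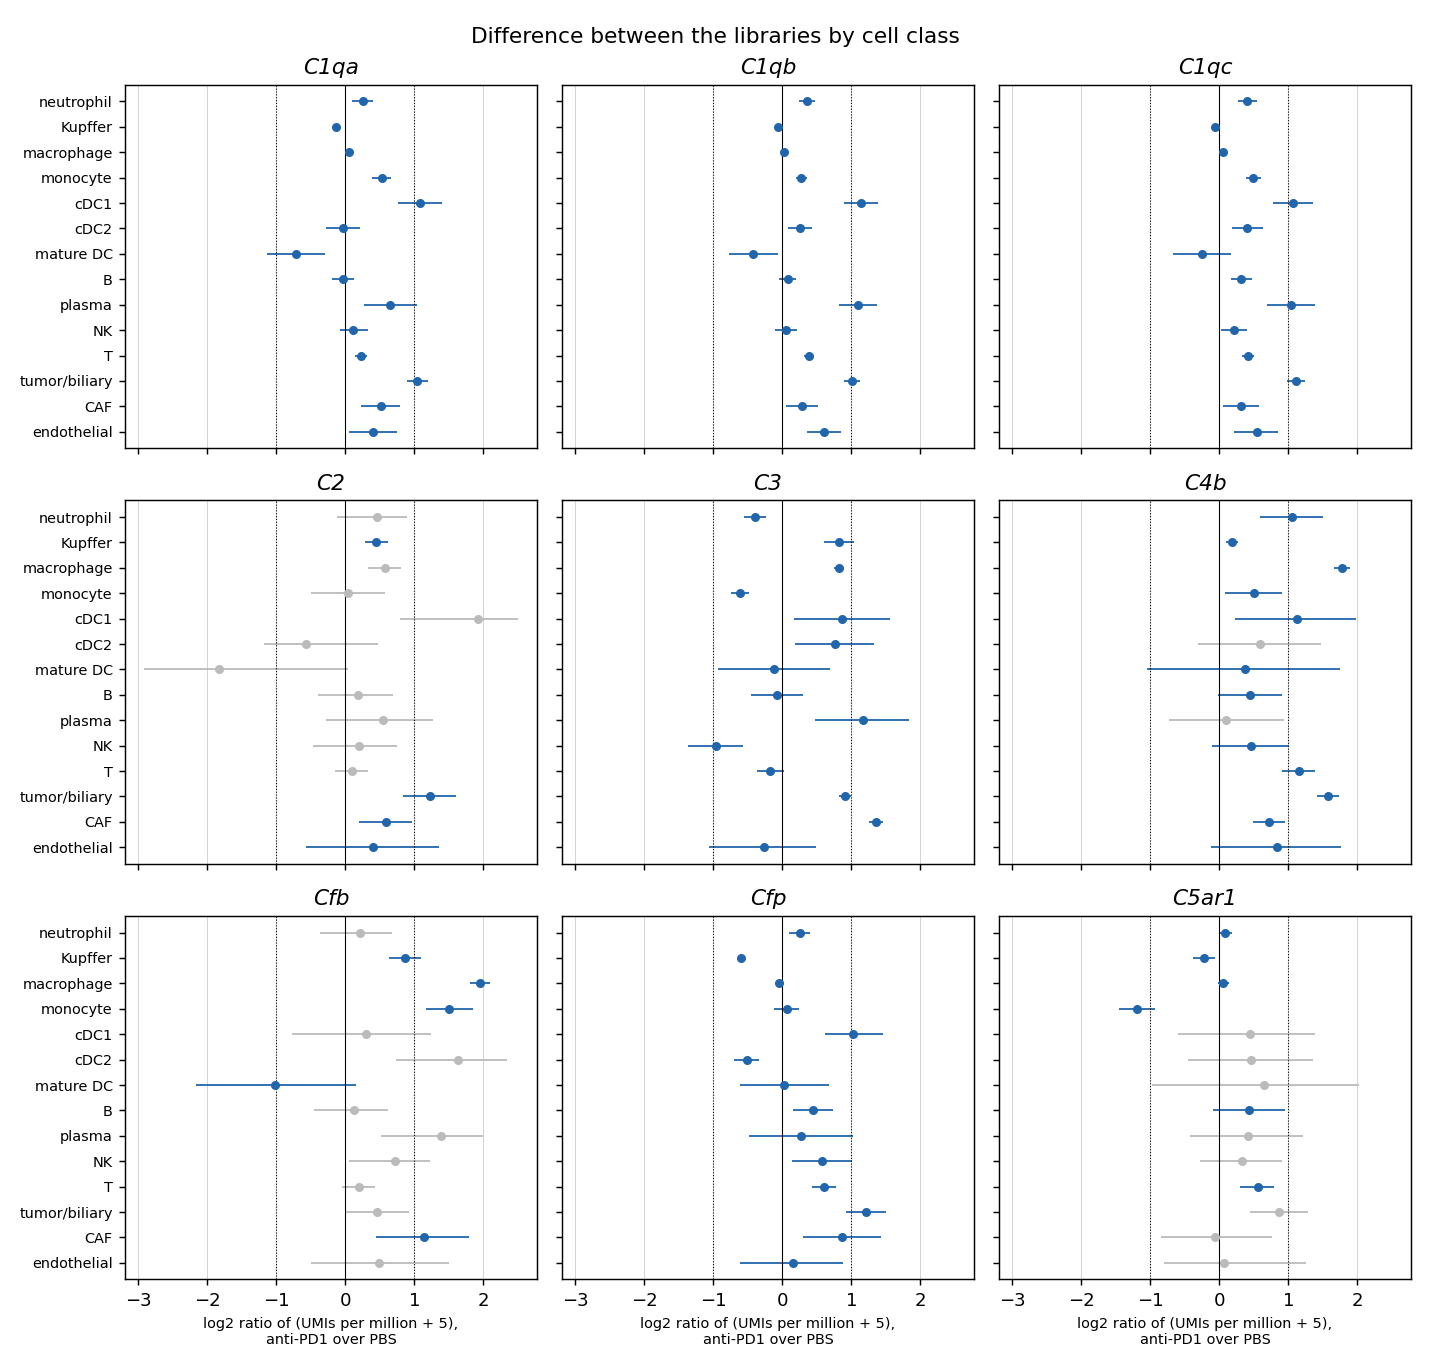
Log2 ratio of (CPM + 5), anti-PD-1 over PBS, for each complement gene in 14 classes. Bars are intervals built from the Poisson intervals of both libraries, dotted lines mark a ratio of 1 in either direction, and grey points are pairs under the minimum of 10 CPM. Cfb and C4b in macrophages lie farthest to the right of the precise points, at 1.95 and 1.78, and C5ar1 in monocytes lies at -1.20.

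The genes whose levels ran most like those of the complement genes, over the 28 sums of a library and a class, were genes of the same cells. The correlations of log2(CPM + 5) are given as descriptions, since the points share libraries and depth. Adgre1, a macrophage marker that was part of the gate, had the highest Pearson r with C1qb and C1qc (0.95 and 0.95), and Paox with C1qa (0.94). The next were Adgre1 (0.93) and C3ar1 (0.93) for C1qa, C3ar1 (0.94) and Paox (0.94) for C1qb, and Paox (0.94) and Kcnk13 (0.94) for C1qc. C5ar1 ran with Cd300lb (0.95), Pla2g7 (0.94) and Csf3r (0.93), the last a neutrophil gate marker. Cfp ran with Tmem268 (0.93), Wfdc17 (0.93) and Clec4n (0.90), and C4b with Nxt2 (0.87), Igf1 (0.86) and Ttyh2 (0.85). C3 was closest to Nupr1 (0.87), Fam20c (0.81) and Fn1 (0.78), and C2 to Pcolce2 (0.88), Slc16a9 (0.88) and Slc45a3 (0.87). Cfb had the weakest first match, Npc2 (0.79), followed by Sowahc (0.79) and Calhm6 (0.78). Among themselves the C1q genes correlated at 0.99 in each pair, and C2 with C4b at 0.86.

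The rest of the pathway was described with a list of 48 genes, of which 47 were found. Over the 14 classes 192 pairs of a listed gene and a class reached the minimum. Of these 24 (12.5%) were past the fold upward and 22 (11.5%) downward, against 3.39% and 2.9% of all pairs of a gene and a class. The pairs are not separate genes: Fcna upward and Vtn downward each recurred over several classes, as given below. The upward count was smaller after subtraction of free RNA, as given with the dependence on processing. In macrophages 13 listed genes reached the minimum, 3 higher and 10 lower, none past the fold, with a median log2 ratio of -0.25. The median was -0.30 in Kupffer cells, -0.46 in monocytes, 0.25 in CAFs and 0.36 in tumor/biliary cells. For the complement genes followed here it was 0.06 in macrophages, -0.06 in Kupffer cells, 0.38 in monocytes, 0.65 in CAFs and 1.11 in tumor/biliary cells, and for all genes above the minimum -0.16, -0.12, -0.11, 0.02 and -0.04.

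In CAFs the initiating protease C1ra was 175 and 371 CPM (1.06), the membrane-attack component C7 21.1 and 119 (2.25), and the membrane inhibitor Cd55 64.2 and 195 (1.53). Masp1, a protease of the lectin pathway, was 156 and 51.9 (-1.50), the collectin Colec11 206 and 99.4 (-1.01) and the inhibitor Cd59a 93.7 and 43.1 (-1.04). Serping1, the C1 inhibitor, stood in tumor/biliary cells at 11.6 and 53.1 CPM (1.81) and Cfi, which inactivates C3b and C4b, at 67.2 and 149 (1.09). C1ra there was 6.02 and 17.2 CPM (1.01). Vtn, a blocker of the terminal complex that hepatocytes secrete in quantity, was 453 and 87.9 CPM in tumor/biliary cells (-2.30) and was past the fold downward in 7 classes. Serping1 was also higher in endothelial cells, at 39.0 and 124 CPM (1.55).

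In monocytes the C3a receptor C3ar1 stood at 96.4 and 29.3 CPM (-1.56), Itgam, a chain of complement receptor 3, at 416 and 182 (-1.17), and Cd93 at 276 and 132 (-1.03). Vsig4, a C3b receptor of Kupffer cells, was higher in monocytes (11.6 and 34.6 CPM, 1.26), tumor/biliary cells (1.42) and endothelial cells (1.07). Fcna, a ficolin among the leading genes of the Kupffer class, was past the fold upward in 8 classes, each at a level under 50 CPM. In Kupffer cells Cd55 was the one listed gene past the fold, at 35.6 and 92.2 CPM (1.26). C6 passed it in neutrophils (1.12) and endothelial cells (1.39), and Itgb2 in tumor/biliary cells (1.31). Clu was lower in NK cells (586 and 251 CPM, -1.21) and plasma cells (-1.19). Further listed genes past the fold were C1s1 (-1.48) and C3ar1 (1.17) in cDC1, C3ar1 in cDC2 (-1.14), Cd93 in plasma cells (-1.43), and Masp1 and Cd55 in mature dendritic cells, where Masp1 had 12 and 0 UMIs and Cd55 had 2 and 8.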

How the data were processed

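Cells from digested tumor-bearing livers were sequenced with the Singleron GEXSCOPE V2 kit. The authors demultiplexed, aligned and counted the reads with Singleron's software against mm10, and deposited raw UMI counts per gene and cell. Seurat 4.3 is listed in the submitters' processing notes. The software version, gene annotation and strand setting are not given in the sources used here.

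The study's cell filters were kept: no fewer than 500 and no more than 5000 genes per cell, and mitochondrial UMIs up to 10%. Each cell was placed in 1 of 20 classes by a score, the mean of the log levels of 4 to 8 markers. Each marker was divided by, and capped at, its 95th percentile among cells with a UMI of it. At least 2 markers had to be detected and the score had to be 1.5 times that of the next class. Cells with mixed markers therefore stayed unassigned, and no doublet caller was run. Counts were summed per library and class with at least 50 cells in both, and divided by the class total (CPM). Ratios are log2 of (CPM + 5), intervals exact Poisson or exact binomial (Clopper-Pearson), and shares were taken after thinning cells to 1000 UMIs. Cells with fewer than 1000 UMIs were left out of these shares. Sums of the 2 libraries, not cells, were compared, and no p-value was computed. Named genes were the 9 complement genes, every gene of the pathway list past the fold at a mean of 10 CPM, and for each complement gene the 3 genes most like it; 1 gene of the pathway list is not reported here by name. Cluster genes were named after their values were seen, and gene roles are background. The members and lists were chosen with earlier results of these data known. Leiden clusters (30, from 2000 variable genes without the complement genes, 30 components, 15 neighbours, resolution 1) placed 91.3% of the gated cells in the same class. The ratio and interval code recovered known fold changes when tested on simulated data. The simulated sums were Poisson draws, as the intervals assume, so the test checks the code only. It does not cover the uneven spread of UMIs over cells seen here. Alternatives were another pseudocount, median-ratio scaling, classes by cluster, a stricter gate, cells with a Y-linked UMI and no Xist UMI, subtraction of free RNA, 20% mitochondrial UMIs, and no upper gene limit. Gene positions are from the GENCODE annotation of GRCm38. Python 3.11.15, numpy 2.4.6, scipy 1.17.1, pandas 2.3.3, igraph 0.11.9 and leidenalg 0.10.2 were used.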

Additional observations from a re-analysis of the deposited data

Results flagged for a closer look

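For 6 complement genes the ratio of anti-PD-1 to PBS had opposite signs in 2 classes, with both counting intervals clear of 0, and these pairs are given with their log2 ratios. C1qa was 1.08 in cDC1 and -0.71 in mature dendritic cells, and C1qb was 1.14 and -0.42 in the same classes. In cDC1 a gate asking for 1 more marker gave 0.29 for C1qa, with an interval that included 0, and 0.83 for C1qb. In mature dendritic cells the top 5% of the 67 cells with PBS held 77.1% and 67.9% of the UMIs of C1qa and C1qb, and the share of cells with a UMI at 1000 UMIs per cell was 12.3% and 21.3% for C1qa and 18.5% and 36.1% for C1qb, with overlapping intervals. C1qc was 1.11 in tumor/biliary cells and -0.062 in Kupffer cells, where the sign turned with median-ratio scaling. C3 was 1.35 in CAFs and -0.97 in NK cells, where the top 5% of cells held 91.6% and 83.3% of 83 and 72 UMIs. Cfp was 1.21 in tumor/biliary cells and -0.60 in Kupffer cells. C5ar1 was 0.55 in T cells, at 7.38 and 13.2 CPM, and -1.20 in monocytes. The part of free RNA in the Cfp level of tumor/biliary cells and the C5ar1 level of T cells was not tested. With 1 library per group the difference between the classes was not tested, and their causes were not tested.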

How the results depend on the processing

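No paired analysis was possible because each group has 1 library. Of the 23 pairs past the fold, the direction held in all 23 with a pseudocount of 1 CPM, median-ratio scaling, 20% mitochondrial UMIs and no upper gene limit, and in 13 of the 14 that had a value with classes by Leiden cluster. The number that stayed past the fold was 23, 21, 17 and 19 under the first 4 settings, in that order, and 6 of the 14 with Leiden classes. Of the 13 pairs with at least 100 UMIs in each library, 9 stayed past it with 20% mitochondrial UMIs. With no upper gene limit 11 did, with the stricter gate 9, and with Leiden classes 5 of the 9 that had a value. The stricter gate gave a value for 22 pairs, Y-linked cells for 10 and subtraction of free RNA for 13, all in the same direction. Of these 17, 10 and 12 stayed past the fold. Subtraction of free RNA left out each pair whose value fell below 0 in a library. Pairs that failed in this way are thus missing from its count. It kept a value for 5 of the 13 pairs with at least 100 UMIs in each library. Median-ratio scaling moved the median of all genes by -0.40 in neutrophils, -0.21 in macrophages, -0.20 in T cells and -0.19 in NK cells, and by 0.08 in plasma cells. The cause of each change given here was not tested.

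In macrophages C4b became 1.89 with a pseudocount of 1 CPM, 1.97 with median-ratio scaling, 1.41 with Leiden classes and 2.54 in Y-linked cells, and Cfb became 2.18 (pseudocount), 2.13 (scaling) and 2.56 (Y-linked cells). In monocytes C5ar1 became -1.96 with Leiden classes and -1.47 with no upper gene limit, and Cfb turned to -0.59 with Leiden classes. In cDC1 the stricter gate gave 0.29 for C1qa, 0.83 for C1qb and 0.46 for C1qc. In tumor/biliary cells Leiden classes gave 0.72 for C1qa, 0.73 for C1qb, 0.78 for C1qc and 1.35 for C4b, Y-linked cells gave 1.28, 1.19 and 2.42 for C1qa, C1qb and C4b, 20% mitochondrial UMIs gave 0.82 and 0.88 for C1qa and C1qb, and no upper gene limit gave 0.89 for C1qb. C3 in CAFs became 0.79 with Leiden classes. Single clusters were added after seeing the data. C4b in macrophages was 0.66, 1.37 and 1.91 and Cfb 1.32, 0.049 and 1.75 in clusters 1, 8 and 23. In tumor/biliary cluster 0, which held most of the class, C1qa was 1.13, C1qb 1.13, C1qc 1.23, C2 1.74, C4b 1.67 and Cfp 1.36, and in cluster 21 C1qa was -0.013, C1qb 0.052, C1qc 0.31, C2 -0.33, C4b 0.25 and Cfp 0.70. In CAFs C3 was 0.62 in cluster 15 and -0.13 in cluster 27, where Cfb was -0.37 from 12 and 15 UMIs.

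The count of complement pairs past the fold upward, 21, became 9 with Leiden classes. The count downward, 2, became 1 with scaling, 20% mitochondrial UMIs or no upper gene limit, 5 with Leiden classes and 0 in Y-linked cells. For the pathway list 24 upward became 12 in Y-linked cells and 9 after subtraction of free RNA, and 22 downward became 12 with Leiden classes and 9 in Y-linked cells. Without the minimum of 10 CPM the counts were 24 and 3 for the complement genes and 31 and 30 for the list. Depth limited Cfb, C2 and C5ar1 most: of the 28 sums of a library and a class, 22, 21 and 17 held under 50 UMIs.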

Other observations

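Classes with under 50 cells in a library were not compared. Among them the 35 and 16 mesothelial cells, which line the liver surface, stood at 4521 and 3243 CPM of C3 with PBS and anti-PD-1, above CAFs in both libraries. The 73 and 33 hepatocytes stood at 1503 and 1033, above CAFs with PBS only. Mesothelial cells also held C4b at 303 and 295 CPM, C2 at 150 and 260, and Cfb at 113 and 126, from 18 to 99 UMIs each. C5ar1 had 0 UMIs in mesothelial cells of both libraries.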
